A study of Mus musculus with 15 samples.

Results

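The 7 genes described here have ties to the germ line or the testis: Cox6b2, Rpl39l, Hoatz, Dazl, Ddx4, Mael and Sycp3. They were followed on 15 Affymetrix whole-genome mouse arrays of primary male mouse embryonic fibroblasts, which are connective tissue cells taken from the embryo and grown in culture. Members were every probe set, a group of short probes for 1 transcript, that the platform annotation ties to 1 of these symbols alone. The 7 genes had 8 probe sets, 2 of them for Dazl, out of 18193 genes with such a probe set. They were selected on measured values of these arrays, among them the high rank of Cox6b2 and Hoatz in Hdac1-deleted cells. What follows therefore describes their levels. Adjusted p-values are given for them only in comparisons not known to have guided the choice. Those comparisons use the same control arrays.

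The study asked what the loss of the histone deacetylases HDAC1 and HDAC2, singly and together, does to gene expression. Each of the 5 groups had 3 arrays. The fibroblasts of 4 groups carried floxed Hdac1 alleles (Hdac1 F/F), a retrovirus for Cre-ERT2, a recombinase that tamoxifen switches on, and a retrovirus for a micro-RNA. The control group had a scrambled micro-RNA and ethanol. The Hdac1 KO group had the scrambled micro-RNA and 200 nM tamoxifen, the Hdac2 Kd group a micro-RNA against Hdac2 and ethanol, and the KO/Kd group that micro-RNA and 200 nM tamoxifen. The fifth group was HDAC1 +/+ fibroblasts with 200 nM tamoxifen, and the sources used here do not say whether those cells carried either virus. Deletion was therefore always paired with tamoxifen within the floxed cells, and the +/+ cells are another genotype. The labels number the arrays of a group 1 to 3 without saying that they came from separate cultures or embryos, so the p-values measure the spread between these arrays, which may be technical.

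HDAC1 and HDAC2 take acetyl groups off histones and work in corepressor complexes. Many germ cell genes are kept silent in body cells by DNA methylation of their promoters and by a variant polycomb complex that reads E-box (CACGTG) and E2F-type (GCGGGAA) sequences. Cox6b2 encodes the testis form of a subunit of cytochrome c oxidase, and Rpl39l a testis-rich copy of ribosomal protein L39. Hoatz is needed for motile cilia and sperm flagella. Dazl binds RNA in germ cells, Ddx4 (Vasa) is a germ cell RNA helicase, Mael acts in piRNA defence against transposons, and Sycp3 builds the axis of meiotic chromosomes.

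The promoters of the 7 genes are shown because they hold, or lack, those sequences. All 7 symbols matched RefSeq promoter windows on GRCm38.p6 (250 bases before to 50 after the annotated start). For 5 genes the bases before the transcribed span are printed, 5′ to 3′ on the gene's strand, with each CACGTG and each GCGGGAA in capitals. The stretches are chr7:4753095-4753344 on the minus strand for Cox6b2, chr16:10169978-10170196 on the plus strand for Rpl39l, chr17:50293621-50293870 on the minus strand for Dazl, chr1:166238745-166238994 on the minus strand for Mael and chr10:88459337-88459586 on the plus strand for Sycp3. The Ddx4 window lies inside the gene's annotated span, which begins farther upstream, so only 30 bases around each motif are shown, at chr13:112652322-112652351 and chr13:112652428-112652457 on the minus strand. The Hoatz window, chr9:51102029-51102328 on the minus strand, also lies inside the gene's annotated span, holds neither motif and is not printed.
Cox6b2: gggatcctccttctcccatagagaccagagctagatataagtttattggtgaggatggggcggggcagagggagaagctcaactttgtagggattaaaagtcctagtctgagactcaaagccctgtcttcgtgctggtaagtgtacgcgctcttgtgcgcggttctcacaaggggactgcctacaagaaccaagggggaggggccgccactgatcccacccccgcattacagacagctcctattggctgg
Rpl39l: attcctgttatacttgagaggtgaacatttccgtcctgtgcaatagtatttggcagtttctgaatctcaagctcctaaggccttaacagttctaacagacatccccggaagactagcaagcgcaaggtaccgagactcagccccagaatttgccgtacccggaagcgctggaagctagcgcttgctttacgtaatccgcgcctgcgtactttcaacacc
Dazl: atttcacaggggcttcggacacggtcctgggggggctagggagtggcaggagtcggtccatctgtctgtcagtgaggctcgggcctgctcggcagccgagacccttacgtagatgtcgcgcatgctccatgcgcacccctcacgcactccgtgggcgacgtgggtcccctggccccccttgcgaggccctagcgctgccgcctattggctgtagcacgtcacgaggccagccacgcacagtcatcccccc
Mael: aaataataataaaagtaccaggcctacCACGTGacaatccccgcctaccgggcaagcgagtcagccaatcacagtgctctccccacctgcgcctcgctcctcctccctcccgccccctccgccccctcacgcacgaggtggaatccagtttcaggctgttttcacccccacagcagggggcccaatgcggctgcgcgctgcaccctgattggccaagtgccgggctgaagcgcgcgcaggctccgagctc
Sycp3: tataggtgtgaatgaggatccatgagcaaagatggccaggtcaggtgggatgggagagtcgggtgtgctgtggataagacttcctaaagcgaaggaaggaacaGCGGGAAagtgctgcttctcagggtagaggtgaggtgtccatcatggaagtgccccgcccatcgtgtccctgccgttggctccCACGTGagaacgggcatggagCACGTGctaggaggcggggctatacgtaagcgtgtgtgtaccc
Ddx4 E-box: ggcgtccgcccgCACGTGcagccgtttaag
Ddx4 E2F-type: ccgtccatgggGCGGGAAgtcgcgcgccgc

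Both motifs were sought on both strands. CACGTG is its own reverse complement, and GCGGGAA was also read as TTCCCGC. In the full windows of 300 bases, CACGTG occurred once in Ddx4, once in Mael and 2 times in Sycp3. GCGGGAA occurred once in Ddx4 and once in Sycp3. The windows of Cox6b2, Rpl39l, Hoatz and Dazl held neither word. Of all 32851 windows in the table, 7.15% held CACGTG, 4.6% held GCGGGAA and 0.457% held both. Among the 75 windows of 58 other germ cell genes, 24 (32%) held CACGTG and 12 (16%) held GCGGGAA. A match is a description of the letters and no measurement of binding.

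CpG content, the base pair step that DNA methylation acts on, separated the 7 windows in another way. Observed over expected CpG was 0.402 for Hoatz and 0.432 for Cox6b2, near the median of 0.384 over all windows. It was 0.666 for Sycp3, 0.78 for Mael, 0.795 for Dazl, 0.836 for Rpl39l and 0.978 for Ddx4. The window with the most CpG, that of Ddx4, stood at the 92.8 percentile. Methylation was not measured here.

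**Figure D1:**
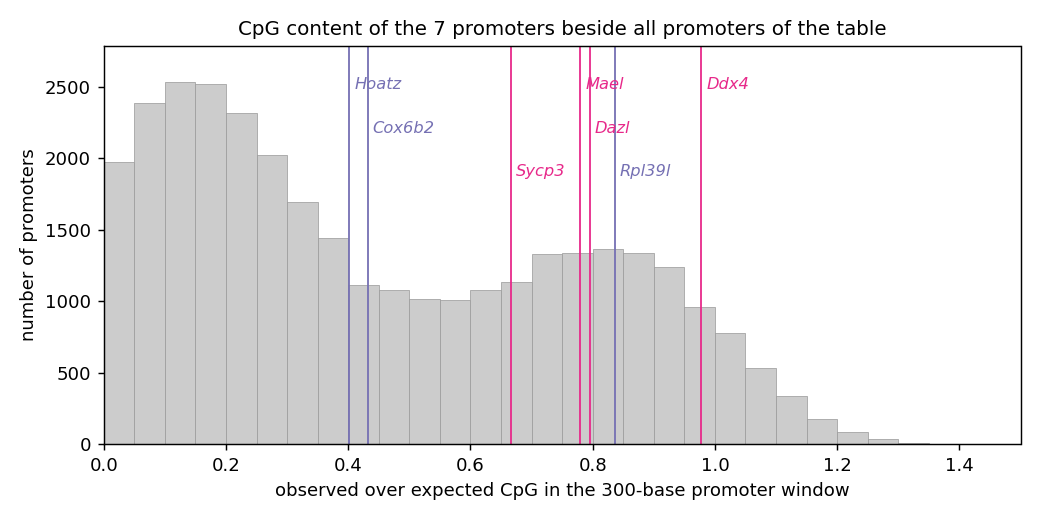
Observed over expected CpG (horizontal axis) of the 300-base promoter windows of the 7 genes, as vertical lines, over the histogram of 32849 of the 32851 windows, those within the plotted range (vertical axis, number of promoters). Purple lines are Cox6b2, Hoatz and Rpl39l, the 3 genes well above the floor in some group, and pink lines are the 4 germ cell genes. Hoatz (0.402) and Cox6b2 (0.432) have the least CpG of the 7, and Ddx4 (0.978) the most.

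The arrays were first checked against the labels. Hdac1 read 3557 ± 101 (SD, n = 3) in control and 3855 ± 105 in Hdac2 Kd cells, against 160.7 ± 19.8 in Hdac1 KO and 155.5 ± 48.6 in KO/Kd cells. Hdac2 read 7051 ± 449 in control and 7167 ± 617 in KO cells, against 958.2 ± 62.1 in Kd and 1025 ± 9.88 in KO/Kd cells. Both genes followed the labels on all 15 arrays. Values are the deposited intensities, and the sources used here name no summary method for them; levels of different probe sets cannot be compared. A probe set was counted as above the floor on an array where it exceeded that array's 40th percentile, which lay between 18.8 and 22.5. The KO/Kd arrays had the highest medians of all arrays, 29.1 to 30.7 against 24.1 to 28.6 on the other 12. The median gene tested was higher by 0.16 on the log2 scale in KO/Kd than in control cells. What scaling and expression each contributed to this was not tested.

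Fibroblast markers were over the filter in all 10 of 10 cases, as the label says. They summed to 174300 to 180600 in control, 165200 to 190600 in KO and 181300 to 186800 in Kd cells. The sum was 199100 to 211400 in KO/Kd and 181100 to 191400 in +/+ cells. Against control 6 rose and 2 fell in KO/Kd cells, where 46.2% of all genes rose and 19.3% fell. Lum changed by 1.43 and Col6a1 by -1.01 there. Thy1 changed by 1.14 in KO, -1.06 in Kd and 2.08 in +/+ cells. Of the 9 measured markers of early germ and pluripotent cells, 5 were under the 40th percentile on every array, among them Sall4. Their sum was 138.2 to 153.2 in control and 166.0 to 175.7 in KO/Kd cells. Of the 4 over the filter, Kit alone was called higher in KO/Kd than in control cells (0.20, adjusted p = 0.0496 by limma), and 0 were lower. The 8 spermatid markers summed to 155.8 to 170.1 in control and 162.7 to 178.7 in KO/Kd cells. In these bulk samples, fewer cells of a type and less RNA per cell cannot be told apart. In the testis somatic list Sox9 read 409.6 ± 17.4 in control, 524.6 ± 66.9 in KO/Kd and 851.6 ± 93.1 in +/+ cells. Star was also higher in KO/Kd than in control cells (0.26, adjusted p = 0.033 by limma). Among lists of other cell types, the summed endothelial markers went from 67.37 to 75.77 in control to 122.9 to 162.5 in KO/Kd cells, through Kdr (1.53; limma, adjusted p = 4.53e-08), and 3 of the 5 were under the 40th percentile on every array. The epithelial sum was 392.0 to 507.3 in control, 699.7 to 878.3 in KO and 290.9 to 355.5 in KO/Kd cells. It was 560.3 to 688.3 in Kd and 588.0 to 762.7 in +/+ cells. Krt19 was higher than in control in KO (0.96), Kd (0.60) and +/+ cells (0.68) and lower in KO/Kd cells (-0.58). Epcam was lower than in control in Kd (-0.36), +/+ (-0.35) and KO/Kd cells (-0.37). Cdh1 and Krt8 did not pass in any group against control. The macrophage sum was 158.9 to 196.1 in control, 216.1 to 308.7 in KO and 176.4 to 248.5 in KO/Kd cells. It was 170.1 to 175.4 in Kd cells and 201.6 or more on every +/+ array. Csf1r was higher than in control in KO cells (0.85) and did not pass in KO/Kd cells (-0.27). From KO to KO/Kd cells Csf1r fell (-1.12). Cd68 was higher than in control in KO/Kd cells (0.62) and did not pass in KO cells (-0.0073). Adgre1 and Lyz2 did not pass in any group against control. The part of these markers in the results was not tested.

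Cox6b2 showed the widest range of the 7 genes between groups with and without deletion. It read 81.4, 70.4 and 58.9 on the control arrays and 288, 309 and 454 on the Hdac1 KO arrays. In KO/Kd cells it read 7743, 8029 and 8239. The Hdac2 Kd arrays gave 67.4, 53.4 and 65.9, and the +/+ tamoxifen arrays 67.3, 73.0 and 56.0. Thus control, Kd and +/+ arrays overlapped, every KO array stood above them, and every KO/Kd array stood above every KO array. The group means were 70.25 ± 11.3 in control, 350.3 ± 90.1 in KO and 8004 ± 249 in KO/Kd cells (SD, n = 3). The ratio of means to control was 4.99 for deletion alone and 114 for both perturbations, and KO/Kd stood 22.8 times above KO.

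On the log2 scale of intensity plus 16, fitted with limma over all 15 arrays, Cox6b2 differed from control by 2.07 ± 0.14 (SE) in KO and 6.55 ± 0.14 in KO/Kd cells. It ranked 4th highest of 13382 genes in the first comparison and 5th in the second. The effect of deletion was larger in knockdown than in scrambled cells by 4.62 ± 0.20. These values are descriptions, since the gene was noticed in them; 24.2% of all genes tested passed an adjusted p of 0.05 in KO against control, 65.5% in KO/Kd against control and 42.9% for the difference in deletion effect. For knockdown alone, where 10.5% of genes passed, Cox6b2 changed by -0.14 ± 0.14 and did not pass (limma, adjusted p = 0.636). In +/+ tamoxifen against control cells, where 28.5% passed, it changed by -0.08 ± 0.14 and did not pass (limma, adjusted p = 0.721). A p that misses the threshold does not show that the groups were alike.

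Hoatz was likewise highest in KO/Kd and next highest in KO cells, over a narrower range. It read 133, 101 and 95.9 in control, 526, 697 and 642 in Hdac1 KO and 1111, 1123 and 1066 in KO/Kd cells. The Kd arrays gave 129, 101 and 127 and the +/+ arrays 152, 129 and 69.2. Control, Kd and +/+ arrays overlapped, and the KO and KO/Kd arrays stood apart from them and from each other. The means were 110.0 ± 20.2 in control, 621.6 ± 87.4 in KO and 1100 ± 30.4 in KO/Kd cells, ratios of 5.65 and 10.0 to control.

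The fitted difference of Hoatz from control was 2.34 ± 0.19 in KO, the 2nd highest of all genes tested, and 3.16 ± 0.19 in KO/Kd cells, the 125th highest. KO/Kd exceeded KO by 0.82 ± 0.19, where Cox6b2 exceeded it by 4.48 ± 0.14, so the knockdown was accompanied by a far smaller further gain in Hoatz. In Kd cells Hoatz differed from control by 0.10 ± 0.19 and did not pass (limma, adjusted p = 0.821). In +/+ tamoxifen cells the difference was 0.03 ± 0.19 (limma, adjusted p = 0.932), and its sign turned under another scaling. The comparisons with control share the control arrays, so the likeness of Cox6b2 and Hoatz across them is not independent evidence.

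Rpl39l separated the +/+ cells from the floxed cells, with or without deletion. It read 5041, 5430 and 5485 in control, 5287, 5827 and 6236 in Hdac1 KO, 3474, 3339 and 3480 in Hdac2 Kd and 4067, 4666 and 4065 in KO/Kd cells. The +/+ tamoxifen arrays read 28.9, 23.6 and 30.2, close to the floor. The floxed and +/+ arrays did not overlap, and the control mean of 5318 ± 242 was 193 times the +/+ mean of 27.58 ± 3.48. The fitted difference of +/+ from control, -6.94 ± 0.08, was the lowest of 13382 genes. Genotype, the source of the cells and tamoxifen with ethanol differ together in this comparison. The viruses may differ as well, since it is not known whether the +/+ cells carried them. The floxed KO and KO/Kd cells, which also received tamoxifen, read 5784 ± 476 and 4266 ± 346. Genotype, cell source, treatment and viruses cannot be told apart, and what each contributed was not tested.

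Among the floxed groups, the 6 arrays with the Hdac2 micro-RNA lay below the 6 without it. Kd cells read 3431 ± 80.2 and KO/Kd cells 4266 ± 346, against 5318 ± 242 in control and 5784 ± 476 in KO cells. The fitted difference was -0.63 ± 0.08 for Kd against control and -0.44 ± 0.08 for KO/Kd against KO. For deletion it was 0.12 ± 0.08 with the scrambled micro-RNA, 0.017 after quantile normalization, and 0.31 ± 0.08 with the Hdac2 micro-RNA. The order of the floxed groups, from high to low, was KO, control, KO/Kd and Kd. KO and control overlapped, and the other neighbours did not.

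**Figure D2:**
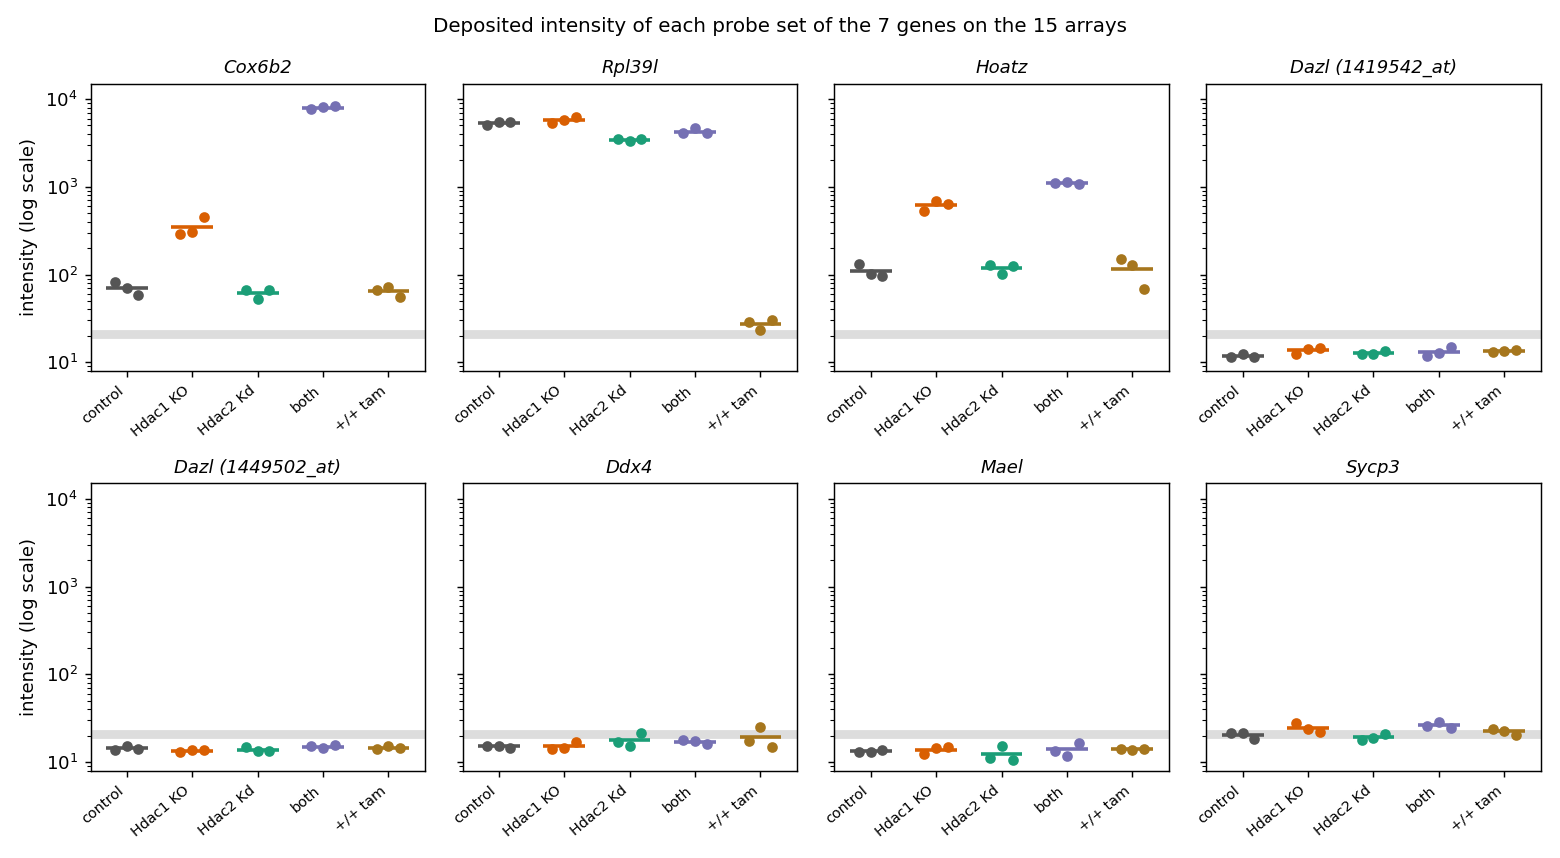
Intensity (vertical axis, log scale) of the 8 probe sets on the 15 arrays, by group (horizontal axis); points are arrays, short lines group means and the grey band the range of the arrays' 40th percentiles, 18.8 to 22.5. "Both" is KO/Kd and "+/+ tam" the HDAC1 +/+ cells. Cox6b2 reaches 7743 to 8239 in KO/Kd cells, Rpl39l falls to 23.6 to 30.2 in +/+ cells, and Dazl, Ddx4 and Mael stay in or under the band apart from 1 +/+ array of Ddx4.

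Of the 4 canonical germ cell genes, Dazl and Mael stayed under the floor on every array, Ddx4 did on 13 of 15, and Sycp3 lay at its edge. The probe sets of Dazl read 11.59 to 14.88 and 12.92 to 15.59 over all arrays, and neither exceeded the 40th percentile on any of the 15. Mael read 10.51 to 16.55 and also exceeded it on 0 of 15. Ddx4 read 14.27 to 25.32 and exceeded it on 2 arrays, 1 of the Kd group and 1 of the +/+ group. In KO/Kd cells, where Cox6b2 was highest, Ddx4 read 16.94 ± 0.961 and Mael 13.99 ± 2.37, against 15.09 ± 0.398 and 13.29 ± 0.532 in control. These 3 genes did not pass the filter of 3 arrays and were not tested. An intensity at the floor is a bound on what the array can show, and absence of the RNA cannot be read from it.

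Sycp3 stood above the 40th percentile on 12 of 15 arrays. It read 20.31 ± 1.9 in control, 24.61 ± 3.21 in KO, 19.25 ± 1.56 in Kd, 26.35 ± 2.33 in KO/Kd and 22.43 ± 1.91 in +/+ cells. The KO/Kd arrays, at 24.53 to 28.98, lay above all control arrays, at 18.12 to 21.52. The fitted difference of 0.22 ± 0.07 became 0.08 after quantile normalization and 0.05 with each array centred on its median, the KO/Kd arrays being those with the highest medians. What this higher overall signal contributed was not tested. Sycp3 did not pass in Kd against control (-0.04 ± 0.07; limma, adjusted p = 0.814) or in +/+ against control cells (0.08 ± 0.07; limma, adjusted p = 0.459).

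**Figure D3:**
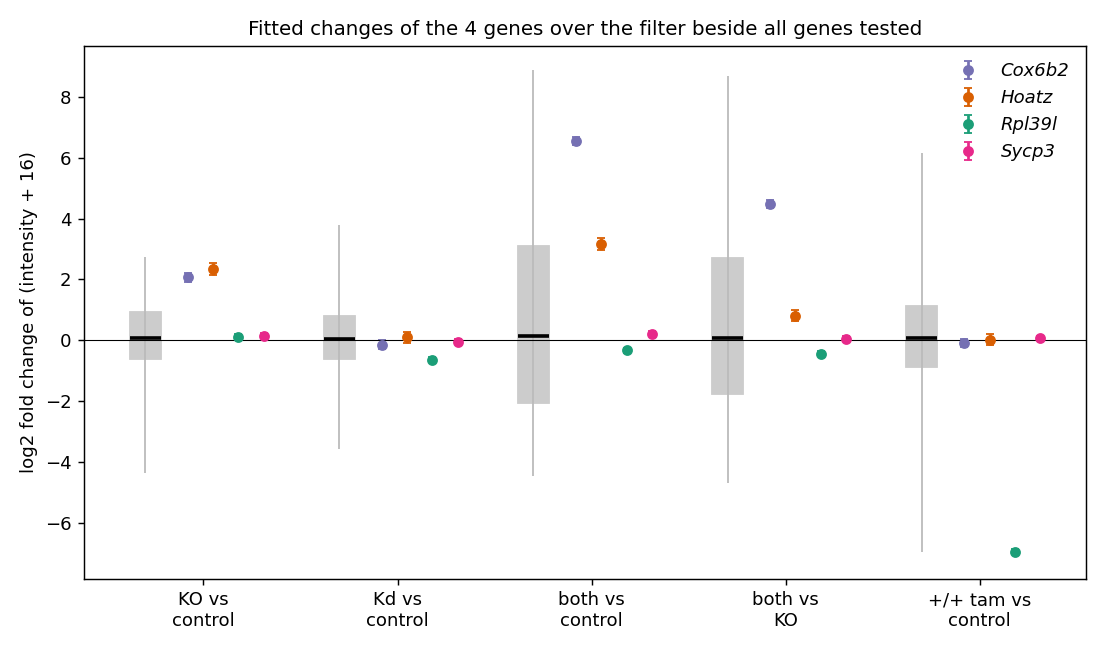
Fitted log2 fold changes of intensity plus 16 (vertical axis) of the 4 genes over the filter in 5 comparisons (horizontal axis); points are estimates and bars ± 1 SE. Beside them the grey box spans the 1st to 99th percentile of all 13382 genes tested, the thin line their full range and the black bar their median. Cox6b2 and Hoatz lie above the box in KO against control and in KO/Kd against control, and Rpl39l is the lowest gene in +/+ against control.

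Other germ cell genes and testis isoforms were read from lists chosen with earlier results of these data known. The calls and adjusted p-values of list genes are therefore no independent evidence. Of 107 such genes 96 had a probe set and 36 passed the filter; 45 of the 96 never exceeded the 40th percentile on any array. Of the 36, 11 rose and 4 fell in KO/Kd against control (41.7%, against 65.5% of all genes, where 46.2% rose and 19.3% fell). In KO against control 5 rose and 1 fell (16.7%, against 24.2%, where 19.5% rose and 4.64% fell), and in Kd against control 3 rose and 2 fell (13.9%, against 10.5%, where 7.5% rose and 3.02% fell). In +/+ against control cells 4 rose and 1 fell (13.9%, against 28.5%, where 21.5% rose and 6.93% fell). In KO/Kd against KO 8 rose and 6 fell (38.9%, against 56.8%, where 36.1% rose and 20.6% fell). The effect of deletion was more positive with the knockdown for 6 and less for 3 of the 36 (25%, against 42.9%, with 25.7% more and 17.1% less positive). Tex15 and Rec8 exceeded the floor only on the 3 KO/Kd arrays, so their place among the 36 was decided by the level that was tested. Without them 9 of 34 rose and 4 fell in KO/Kd against control (38.2%), and 6 rose and 6 fell in KO/Kd against KO (35.3%). The median change in KO/Kd against control was 0.12 over the 36 genes and 0.16 over all genes.

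The genes that rose in KO/Kd cells were mostly dim. Brdt, a testis bromodomain protein that reads acetylated histones, read 35.3 ± 5.41 in control, 38.12 ± 9.43 in KO and 128.5 ± 13.3 in KO/Kd cells, a change of 1.50 ± 0.11 from control (limma, adjusted p = 6.82e-09). Cpeb1, a translation regulator of oocytes, read 26.76 ± 3.84 in control, 87.23 ± 15.9 in KO and 102.3 ± 13.3 in KO/Kd cells. Its change was 1.26 in KO and 1.47 in KO/Kd cells. Cpeb1 also rose in +/+ tamoxifen cells (51.49 ± 18.6, a change of 0.63), and against those cells the changes were 0.64 in KO and 0.84 in KO/Kd cells. Hspa2, the testis-rich heat shock protein, went from 127.6 ± 12.1 in control to 183.8 ± 35.7 in KO and 561.9 ± 88.6 in KO/Kd cells, changes of 0.46 and 2.00. Tdrd7, a tudor domain protein of germ granules, rose by 0.99 and Ddx25, a testis RNA helicase, by 0.89 in KO/Kd cells. Tdrd7 also rose in +/+ tamoxifen cells (0.59). Against those cells the KO/Kd changes were 0.40 for Tdrd7 and 0.72 for Ddx25. Tex15 and Rec8, which act in meiosis, read 33.56 ± 6.77 and 27.23 ± 2.88 in KO/Kd cells against 12.96 ± 0.888 and 14.0 ± 2.64 in control.

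The 4 genes that fell in KO/Kd cells were Syce2, a synaptonemal complex protein (-0.75), Mei4, a factor for meiotic DNA breaks (-0.60), the TBP-like Tbpl1 (-0.57) and the meiotic RNA helicase Ythdc2 (-0.21). Syce2 also fell in KO (-0.49), Kd (-0.38) and +/+ cells (-0.76), all against control. With the mean of all probe sets of a gene Tbpl1 changed by -0.28, Tdrd7 by 0.64 and Calr3 by 0.26, and Clgn no longer passed (0.12; limma, adjusted p = 0.132). Ddx43 (0.40), Meioc (0.31), Calr3 (0.44) and Clgn (0.21) were the other genes that rose. Calr3 and Clgn no longer passed after quantile normalization, and these, Meioc and Ddx43 no longer passed with the arrays centred on their medians. In KO cells Tdrd7 (0.36), Meioc (0.23) and Dnd1 (0.20) rose besides Cpeb1 and Hspa2. The call in KO cells was lost in 11 of 17 alternatives for Dnd1, 10 of 17 for Meioc and 7 of 18 for Hspa2. With the +/+ tamoxifen cells as the control for KO, 2 of the 36 genes were called, and Hspa2 differed by 0.05 and Tdrd7 by -0.23. Without KO replicate 3, also 2 were called, and without control replicate 1 or 3, 3 were. In Kd cells Tdrkh (0.75), Mei4 (0.53) and Cpeb1 (0.53) rose, and Pdilt (-0.28) fell. Cpeb1, at an adjusted p of 0.0495 by limma, lost its call there in 8 of 17 alternatives and Pdilt in 6 of 16, while Tdrkh and Mei4 kept theirs in all 17.

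**Figure D4:**
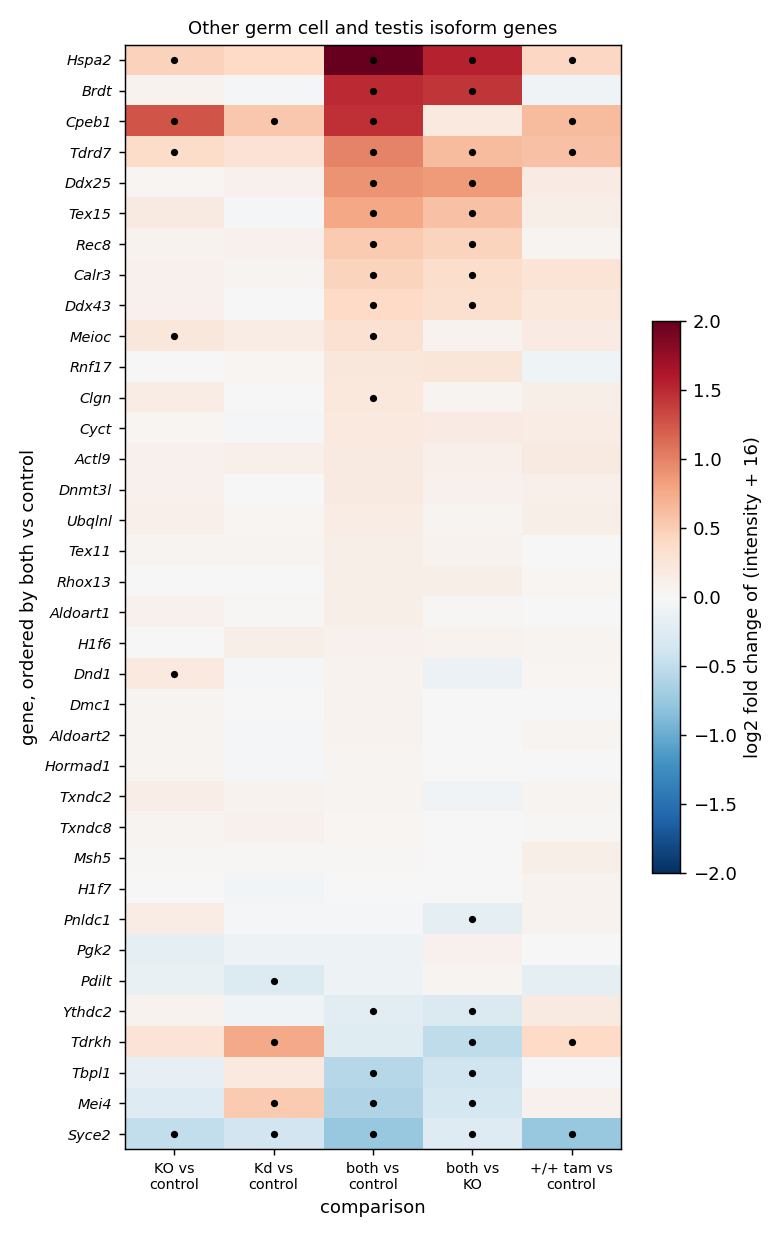
Log2 fold changes of intensity plus 16 (colour, from -2 in blue to 2 in red) of the 36 other germ cell and testis isoform genes over the filter (rows) in 5 comparisons (columns). Black dots mark a limma adjusted p under 0.05. Hspa2, Brdt and Cpeb1 are highest in KO/Kd against control, and Syce2, Mei4 and Tbpl1 lowest.

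The broadly expressed counterparts of the 2 isoforms were Cox6b1 and Rpl39. Cox6b1, the form of the oxidase subunit found in most tissues, rose from 21780 ± 596 in control to 28700 ± 823 in KO/Kd cells, a change of 0.40 ± 0.07 (limma, adjusted p = 7.22e-05), beside 6.55 for Cox6b2. The only probe set tied to Rpl39 alone was dim, at 45.07 to 62.84. Its change in KO/Kd cells was 0.23 as deposited and -0.11 after quantile normalization, so no direction can be read for Rpl39. Of 15 tested genes for motile cilia, 6 rose and 0 fell in KO/Kd cells, led by Tppp3 (1.20), Rsph9 (0.66) and Ccdc39 (0.58), where 46.2% of all genes rose. Of these, Ccdc40 and Cfap43 no longer passed after quantile normalization or with arrays centred, and the mean of its probe sets gave 0.36 for Ccdc39. In +/+ tamoxifen cells Rsph9 alone rose (0.39), where 21.5% of all genes rose. Against those cells the KO/Kd changes were 1.46 for Tppp3, 0.26 for Rsph9 and 0.41 for Ccdc39, and Cfap43 did not pass (0.17). In KO cells, where Hoatz was the 2nd highest gene, Ccdc39 (0.39) rose and 0 fell, but it did not pass under either rescaling; 24.2% of all genes were called there. In Kd cells 0 of the 15 passed, against 10.5% of all genes.

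Genes that silence germ cell genes moved in both directions. Of 23 tested, 11 rose and 9 fell in KO/Kd against control, where 46.2% of all genes rose and 19.3% fell. In KO cells 2 rose and 2 fell, against 19.5% and 4.64% of all genes, and in Kd cells 1 rose and 0 fell, against 7.5% and 3.02%. In +/+ against control cells 3 rose and 4 fell, against 21.5% and 6.93%. The maintenance factors of DNA methylation fell in KO/Kd cells: Uhrf1 fell by 2.24, from 5720 ± 235 to 1219 ± 299, Hells fell by 2.00, and Dnmt1 fell by 1.42, from 2626 ± 115 to 984.3 ± 201. In KO cells Dnmt1 (-0.53) and Uhrf1 (-0.47) also fell. With the +/+ tamoxifen cells as control, Uhrf1 in KO cells differed by -0.31 and did not pass (limma, adjusted p = 0.0687). Atf7ip, a partner of the histone methyltransferase SETDB1, rose by 1.24 and the de novo methyltransferase Dnmt3a by 1.06 in KO/Kd cells, while Dnmt3b fell by 1.00. E2f6, a subunit of the variant polycomb complex, rose by 0.60 in KO cells. Dnmt1 and E2f6 kept their calls in KO cells in all 18 alternatives. E2f6 also rose in +/+ tamoxifen cells. In KO/Kd cells it changed by 0.37 against control and by 0.05 against the +/+ cells. With the mean of the probe sets of a gene, Hells changed by -1.23, Dnmt3b by -0.57 and Atf7ip by 0.72.

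The genes whose levels most resembled each member over the 15 arrays were found by Pearson correlation of log2 values, given as a description because the arrays share 5 groups. For Cox6b2 they were Dzip1 (r = 0.995), Atp11a (0.994) and Atp6v0d1 (0.994), for Hoatz Btg2 (0.981), Cdkn1a (0.980) and Fbxo25 (0.979). Cdkn1a, the cell cycle inhibitor p21, read 2811 in control, 8308 in KO and 12006 in KO/Kd cells. For Rpl39l they were Cd34 (0.984), Aqp1 (0.983) and Tspan18 (0.979), each lowest in +/+ cells; Cd34 read 1505 in control and 143.9 in +/+ cells. For Sycp3 they were Gsk3b (0.866), Blcap (0.858) and Ahnak2 (0.848).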

How the data were processed

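RNA of 15 samples was hybridised to Affymetrix whole-genome mouse arrays after a 1-cycle labelling, per the labels. The authors deposited 1 intensity per probe set, on a linear scale; no label names the summary method or scaling. Of 45037 probe sets, 34945 had 1 gene symbol, 932 had several and 9160 had none. Intensities were taken as log2(intensity + 16). A probe set was kept if it exceeded the 40th percentile of 3 or more arrays, and the brightest per gene represented it, which left 13382 genes. limma 3.58.1 in R 4.3.3 was fitted over the 15 arrays with 1 coefficient per group, with Benjamini-Hochberg adjustment over all genes and a threshold of 0.05. The fit was tested on simulated data. Precision is limited by how few arrays each group has.

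The members and lists were chosen with earlier results of these data known. Adjusted p-values printed for genes of any list are therefore no independent evidence. Adjusted p-values are given for Cox6b2, Hoatz and Sycp3 only in Kd and in +/+ against control; those of KO/Kd against KO had been planned and were left out, and Rpl39l, whose reason for selection is not known, has none. Named genes were the members, Hdac1, Hdac2, Cox6b1, Rpl39, up to 6 called genes per list and comparison by size of change, others by name after their values were seen, and the 3 most correlated genes per member. Alternatives covered filter, pseudocount, scaling, probe set rule, weights, replicate number as block, the +/+ cells as control and leaving out each array.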

Additional observations from a re-analysis of the deposited data

Results flagged for a closer look

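The effect of Hdac1 deletion on 9 genes of the germ cell and testis isoform lists differed between cells with the Hdac2 micro-RNA and cells with the scrambled one, by a limma test of the difference itself adjusted over all 13382 genes, of which 42.9% passed. The difference is given as the effect with knockdown minus the effect without it, on the log2 scale of intensity plus 16. It was 1.46 for Brdt (adjusted p = 2.25e-06), whose deletion effect was 0.07 without and 1.52 with the knockdown. For Hspa2 it was 1.14, from 0.46 to 1.6. Ddx25 differed by 0.77, Tex15 by 0.61, Rec8 by 0.36 and Pdilt by 0.32. For Pdilt the deletion effect was -0.15 without and 0.17 with the knockdown, and neither passed. Tex15 and Rec8 exceeded the floor only on the KO/Kd arrays and were tested because of that level, so their differences are a description. The other three differed the opposite way. Tdrkh differed by -1.27 (adjusted p = 2.3e-05), from 0.27 without to -1.0 with the knockdown. Mei4 differed by -0.88 and Tbpl1 by -0.59. Pdilt did not pass after quantile normalization (adjusted p = 0.0537) or with the arrays centred on their medians (0.111).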

How the results depend on the processing

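Cox6b2 and Hoatz kept their direction in KO and in KO/Kd against control under every alternative run. Leaving out 1 array at a time, Cox6b2 differed from control by 1.87 to 2.19 in KO and 6.45 to 6.64 in KO/Kd cells, and Hoatz by 2.26 to 2.47 and 3.08 to 3.29. Rpl39l in Kd cells ranged from -0.67 to -0.61. In +/+ against control cells, Hoatz ranged from -0.17 to 0.32 and Cox6b2 from -0.18 to 0.012; Hoatz was -0.11 after quantile normalization and -0.036 with arrays centred on their medians, so neither has a direction there.

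Among the other germ cell and testis isoform genes, of which 36 passed the filter, the calls in KO/Kd against control went from 15 to 32 with no filter, when all 96 with a probe set were tested, and to 8 with the filter at the 60th percentile. Leaving out Tex15 and Rec8, an alternative chosen after seeing the data, gave 13. In KO/Kd against KO they went from 14 to 8 with that filter and 9 with array weights, and for the difference in deletion effect from 9 to 5 with that filter. In +/+ against control they went from 5 to 8 with no filter and 10 with array weights. In KO against control they went from 6 to 2 both with array weights and with the +/+ cells as control. In Kd against control they went from 5 to 8 with array weights. Array weights, whose estimate stopped before it converged, also took all genes called from 3235 to 1276 in KO and from 1408 to 2807 in Kd cells. Leaving out 1 array gave list counts of 2 to 6 in KO, 3 to 5 in Kd, 3 to 5 in +/+ and 9 to 13 in KO/Kd against KO.

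Signs turned after quantile normalization for Hspa8 (-0.0064), Rpl39 (-0.11) and Cfap43 (-0.0064) in KO/Kd against control and Rpl39 (-0.027) against KO. With the +/+ cells as control they turned in KO for Pdha1 (-0.039), Tdrd7 (-0.23) and Syce2 (0.26), and in KO/Kd for Rpl39l (6.62), Syce2 (0.0059) and L3mbtl2 (0.035). The cause was not tested. Genes called higher and lower in KO/Kd against control were 6177 and 2584 as deposited, 4310 and 4467 after quantile normalization and 4686 and 4173 with arrays centred; in KO they were 2614 and 621, 1863 and 1927, and 2006 and 1440. In Kd they were 1004 and 404, 1109 and 973, and 1257 and 643, and in +/+ cells 2881 and 927, 1943 and 2010, and 2339 and 1524. In KO/Kd against KO they were 4836 and 2762, 4021 and 4177, and 4199 and 3908, and for the difference in deletion effect 3443 and 2295, 3221 and 3458, and 3159 and 3321.

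Arrays with the same replicate number showed no strong shared deviation (r from -0.159 to 0.135 over 30 pairs, 4 of them over 0.1). The labels do not say whether the numbers pair the samples. With so few arrays per group these correlations cannot decide it. A replicate block took the list's calls in Kd against control from 5 to 3. Signals at the floor limit what can be said of Dazl, Ddx4, Mael and Sycp3.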
